A study of Xenopus laevis with 3 samples.

Results

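Cadherins and the ligands and receptors that guide axons were surveyed for coding variants in the African clawed frog, Xenopus laevis. Members were taken by gene name from the authors' table of homeolog pairs. The names were those of cadherins, protocadherins, Fat, Dachsous and Celsr proteins, semaphorins, plexins, neuropilins, Eph receptors, ephrins, Slits, Robos, netrins, UNC5 receptors and DCC. They matched 69 of 8660 pairs, or 138 of 17320 gene copies, and 62 of these copies carried at least 1 amino acid changing (missense) site. The whole table lists 11603 such genes. Names of neuropilins, EphB receptors and ephrin-B ligands matched no pair. The prefix for UNC5 receptors also takes unc50, a Golgi membrane protein and not a netrin receptor, which is kept as a member and shown apart.

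Cadherins are calcium-dependent adhesion proteins that hold neighbouring cells together through repeated extracellular domains, and the cytoplasmic tails of classical cadherins bind catenins. Growing axons are steered by ligands that attract or repel them: semaphorins act on plexins, Slits on Robos, netrins on DCC and UNC5 receptors, and ephrins on Eph receptors. Fat, Dachsous and Celsr proteins are very large cadherins that also align cells within a tissue plane. In a swimming tadpole these genes serve epithelia, neural crest derivatives, blood vessels, sense organs and the nervous system.

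The material was whole animals at Nieuwkoop-Faber (NF) stage 42, with RNA pooled from 10 tadpoles per cross. There were 3 groups with 1 library each: offspring of an inbred albino strain, offspring of the inbred pigmented J strain, and offspring of matings between them in reciprocal crosses. No treatment was given. The strain letters in the descriptions and in the genotypes contradict each other, so groups follow the titles. The design text gives about 30000000 to 47000000 paired reads of 100 bases per library. The deposited tables pool the libraries: no column names a cross or a strain, so crosses could not be compared and no spread between replicates exists. Sites are the units counted, Wilson 95% intervals cover counting error only, and read depth per site is unknown.

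X. laevis is allotetraploid, and each pair consists of a copy on the long (L) and a copy on the short (S) subgenome, written here as dchs1.L and dchs1.S. A copy enters the authors' gene table only if it has a missense site, so the number of synonymous sites in an unlisted copy is unknown. Of the member copies 44.9% were listed, against 32.6% of the copies with a gene symbol and 32.7% of all copies in the pair table. By family the listed share ran from 20% in Slit and Robo to 62.5% in the giant cadherins and 64.3% in the plexins. These shares take no account of protein length, and its part in the gap was not tested. Both copies were listed in 11 pairs (15.9%, against 15.3% of all pairs) and neither in 18 (26.1%, against 49.9% of all pairs). L alone was listed in 17 (24.6%, against 15.9% of all pairs) and S alone in 23 (33.3%, against 18.8%). S alone was thus more frequent than L alone over all pairs too. The 18 pairs with no listed copy were cdh10, cdh11, cdh15, cdh20, cdh24, pcdh7, pcdh9, pcdh18, pcdha13, sema3c, sema4c, sema6a, robo1, robo2-like, robo3, ntn1-like.1, efna2 and epha10. The Robo receptors, which read Slit signals on the axon, make up only 3 of these pairs, and 49.9% of all pairs had no listed copy. Whether an unlisted copy was covered by reads is unknown.

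The 62 listed copies held 148 missense and 312 synonymous sites, with a median of 2 missense and 4 synonymous sites per copy. A single missense site was found in 28 of them (45.2%, against 53.5% of listed copies with a symbol). No synonymous site was found in 8, against 962 of the 4452 listed copies with a symbol. Predictions were made by PolyPhen-2, which gives each amino acid change a probability of damage. In the deposited table possibly damaging changes begin at 0.447 and probably damaging changes at 0.909, and lower ones are benign. A prediction was given for 141 of the 148: 111 changes were classed as benign, 11 as possibly and 19 as probably damaging. Damaging, here and below, names this predicted class, and no effect on a protein was measured. Damaging sites of either class lay in 20 copies (32.3%, against 32.1% of listed copies with a symbol and 29.9% of all listed genes). A change is written with the reference residue, its position in the authors' protein model and the variant residue.

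**Figure D1:**
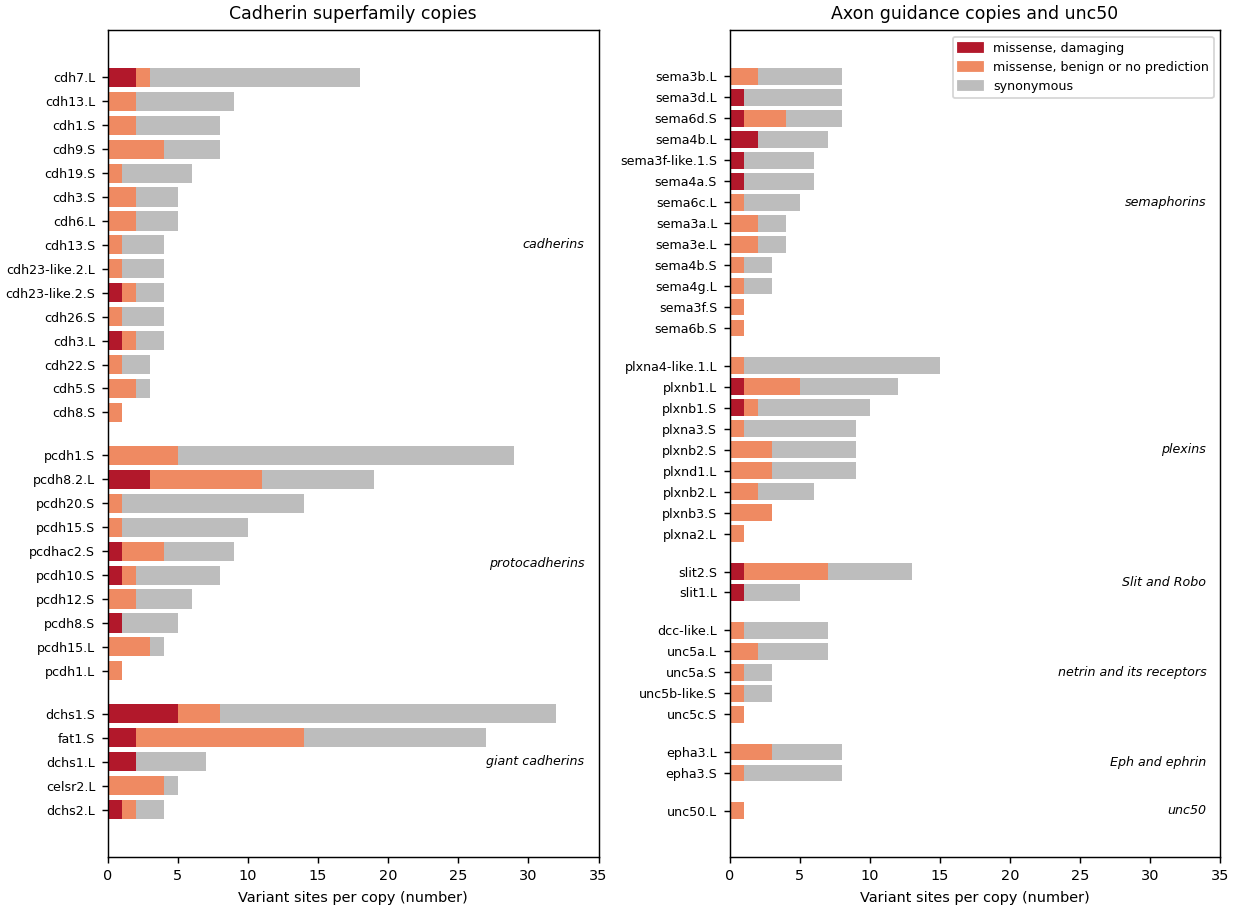
Variant sites in each of the 62 listed copies, grouped by family; the horizontal axis gives the number of sites, stacked as damaging missense, other missense and synonymous. The longest bars are those of dchs1.S with 32 sites, pcdh1.S with 29 and fat1.S with 27, of which 8, 5 and 14 are missense.

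Among the cadherins, 15 of 34 copies were listed, with 27 missense and 59 synonymous sites. The most sites lay in cdh7.L (Xelaev18031803m), a type II cadherin of the neural tube, which held 3 missense and 15 synonymous sites. Its change V368M had a probability of 0.999 and L781F of 0.505, while I335M was benign. The epithelial cadherin cdh1.S held 2 missense sites, T27N and A31T, and 6 synonymous ones. Neither change had a prediction or an aligned residue. In cdh3.L, a classical cadherin of the early frog embryo, D766N reached a probability of 1 over 112 aligned residues, and N316S was benign. Its homeolog cdh3.S held the benign changes G3S and N112I. The type II cadherin cdh9.S held 4 missense sites, the most of any listed cadherin, and all of them were benign with probabilities from 0.007 to 0.169.

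The vascular cadherin cdh5.S held N365D and K579N, both benign, beside 1 synonymous site. In the hair cell tip link gene cdh23-like.2 the L copy held D245E, which was benign, and the S copy held D1318E, which was possibly damaging at 0.571, and K1447T, which was benign. Both of these aspartate changes keep the negative charge. T-cadherin, cdh13, is tethered by a lipid anchor in place of a membrane span, with 2 missense changes in the L copy and 1 in the S copy. In cdh13.S the change V519I lay just under the class boundary at 0.435. The other listed cadherins, cdh6.L, cdh8.S, cdh19.S, cdh22.S and cdh26.S, held 1 or 2 missense sites each, and none was predicted to be damaging.

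Among the protocadherins, cadherins with a different cytoplasmic tail, 10 of 24 copies were listed, with 31 missense and 74 synonymous sites. The copy pcdh8.2.L (Xelaev18013228m), related to the paraxial protocadherin that acts in gastrulation movements of the frog, held 11 missense and 8 synonymous sites. Possibly damaging changes there were G184R at 0.899, Q603H at 0.896 and E23Q at 0.58, and the other 8 were benign. The copy pcdh8.S held a single missense site, G73W, at a probability of 0.998, and 4 synonymous sites. In contrast to pcdh8.2.L, pcdh1.S (Xelaev18021541m), the axial protocadherin of the frog embryo, held 5 missense and 24 synonymous sites, and all 5 changes were benign at 0.017 or less. The change G489S in pcdh10.S reached a probability of 1, and A506P in the clustered protocadherin pcdhac2.S was possibly damaging at 0.53. The tip link protocadherin pcdh15 held 3 benign changes in L and 1 in S, among them V221I, I542V and V575I. The copies pcdh12.S and pcdh20.S held 2 and 1 benign changes, beside 4 and 13 synonymous sites.

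The giant cadherins had 5 of 8 copies listed, with 30 missense and 45 synonymous sites. Dachsous 1, the partner of Fat proteins in cell alignment, had changes predicted to be damaging in both copies. In dchs1.S (Xelaev18016563m), 5 of 8 missense sites were damaging: A2109V at 0.999, P1664T at 0.973, R1750H at 0.926, L12R at 0.887 and K387M at 0.702. Of these L12R rested on 1 aligned residue and the others on 69 to 123, and P2161T lay just under the boundary at 0.444. In dchs1.L both missense sites were probably damaging, L1453F at 0.996 and S1804C at 0.939. The related dchs2.L held D1386N, possibly damaging at 0.805, and the benign I1338T.

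The Fat cadherin fat1.S (Xelaev18009106m) held 14 missense sites, the most of any member, beside 13 synonymous sites. Of its changes 12 were benign and 2 probably damaging, P3413L at 1 and E3894D at 0.996. Its missense sites were spread unevenly along the protein, with V1257A the first and the other 13 between positions 3413 and 4579. This spread was picked out after it was seen and was not tested. Positions of the synonymous sites and read coverage along the transcript are unknown. The adhesion receptor celsr2.L, a relative of fly Flamingo, held 4 missense sites and 1 synonymous site. Of the 4 changes K110R had no prediction and Y1720S, A1760V and Q2320K were benign.

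Semaphorins, the ligands of plexins, had 13 of 30 copies listed, with 20 missense and 44 synonymous sites, and no copy held more than 4 missense sites. Of 19 predicted sites 5 were probably damaging. In the membrane-bound sema6d.S (Xelaev18020623m), R476C reached a probability of 1 over 220 aligned residues, while the other 3 changes were benign. Both changes of sema4b.L were probably damaging, W4S at 0.973 and K749Q at 0.97, and the first rested on 5 aligned residues. Among the secreted class 3 semaphorins, A353T in sema3f-like.1.S stood at 0.976 and E323D in sema3d.L at 0.958. The change S692N in sema4a.S was possibly damaging at 0.525. The repellents sema3a.L and sema3e.L held 2 benign changes each, and sema3b.L held 1 benign change and 1 without a prediction.

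Plexins, the semaphorin receptors, had 9 of 14 copies listed, with 21 missense and 53 synonymous sites, and 2 of their 20 predicted sites were damaging. Both lay in plxnb1, a receptor of class 4 semaphorins: M2155I in the L copy reached 0.999 over 154 aligned residues, and T1024I in the S copy stood at 0.573. The copy plxnb1.L (Xelaev18024061m) held 5 missense sites, the most of any plexin. The 3 changes of plxnb3.S, the 3 of plxnd1.L, which is a receptor of sema3e in blood vessels, and the 5 of the plxnb2 pair were benign. The A-type plexins plxna2.L, plxna3.S and plxna4-like.1.L held 1 benign change each, beside 0, 8 and 14 synonymous sites.

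Slits are secreted repellents of the midline, and slit1.L and slit2.S were the listed copies of this group. In slit2.S (Xelaev18008960m) 7 missense and 6 synonymous sites were found. The change S411P had a probability of 1, and the other 6 changes stood at 0.011 or less, among them the charge changes V766E, M778K and R824G. The single missense site of slit1.L, L542R, also had a probability of 1. The netrin receptors had no damaging site among 5 predicted ones: unc5a held 2 changes in L and 1 in S, unc5c.S and dcc-like.L 1 each, and the 1 change of unc5b-like.S, S4F, had no prediction. The Eph receptor tyrosine kinase epha3 held 3 benign changes in L and 1 in S. The single change of unc50.L, A32V, had no prediction.

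**Figure D2:**
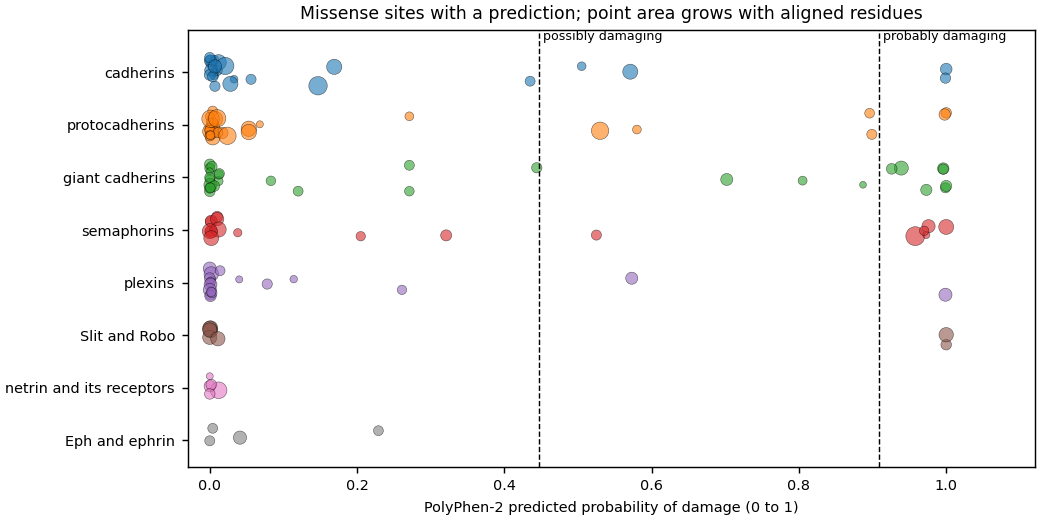
Predicted probability of damage (horizontal axis, 0 to 1) for the 141 missense sites with a prediction, 1 point per site with an area that grows with the number of aligned residues, in rows by family; dashed lines mark the lowest probabilities of the possibly and probably damaging classes. Points gather near 0 and near 1, and the netrin receptor and Eph rows hold no point past the first line.

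Low probabilities prevailed: 53.2% of the predicted member sites stood at 0.01 or less, against 50.5% over all genes. At the other end 6 member sites reached 1: D766N in cdh3.L, G489S in pcdh10.S, P3413L in fat1.S, R476C in sema6d.S, L542R in slit1.L and S411P in slit2.S. How many sites reached 1 over all genes was not counted. Damaging sites made up 21.3% of predicted member sites (Wilson interval 15.3 to 28.7), against 21.4% in all copies with a symbol. Probably damaging sites alone made up 13.5%, against 8.16% in copies with a symbol. By family the damaging share was 34.5% in the giant cadherins (10 of 29, 19.9 to 52.7) and 31.6% in the semaphorins (6 of 19, 15.4 to 54.0). It was 19.4% in the protocadherins (6 of 31), 16% in the cadherins (4 of 25) and 10% in the plexins (2 of 20, 2.79 to 30.1). These intervals overlap one another. Without dchs1.S, their copy with the most sites, the giant cadherins stood at 23.8%, and without cdh7.L the cadherins stood at 9.09%.

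Alignments were deeper in the median at member sites than over all genes, though not at each site. Member sites with a prediction had a median of 78 aligned residues, against 44 over all genes and 49 in copies with a symbol. At least 10 were aligned for 93.6%, against 71.6% and 76.2%. That share was 96.5% in the cadherin superfamily and 89.3% in the guidance genes. Of the 30 damaging member sites 2 had fewer than 10. A prediction was lacking for 4.73% of member missense sites, against 16.9% over all genes and 9.86% in copies with a symbol. The variant residue itself occurred at the aligned position of some relative for 87 of 111 benign member sites (78.4%) and 4 of 30 damaging ones (13.3%), against 68.3% and 8.72% over all genes. The predictor uses the alignment, so this is no independent evidence on either class.

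A matched protein structure was available for 9 member sites. The 5 damaging ones among them were V368M in cdh7.L, E323D in sema3d.L, R476C in sema6d.S, L542R in slit1.L and S411P in slit2.S. Normalised solvent accessibility of the residue was 0.167, 0.118, 0.043 and 0.139 for the first 4, and was not given for S411P. The benign sites were more exposed: 0.24 for S62G in sema3b.L, 0.352 for S219T in cdh13.L, 0.606 for N316S in cdh3.L and 0.816 for S620A in epha3.S. Accessibility by class over all genes was not compiled, so these values have no background to be set against, and the difference was not tested. Accessibility can enter the prediction, and sequence identity to the structures ranged from 0.56 to 0.96.

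Some exchanges, mild ones and others, had a larger share among the member sites than over all genes. Leucine to arginine, which adds a charge, was found at 3 sites (2.03%, against 0.234%). The mild exchange of aspartate and glutamate was found at 6 sites, at about the share of all genes (4.05%, against 4.04%). Valine and isoleucine were exchanged at 12 sites (8.11%, Wilson interval 4.70 to 13.6), against 4.14% over all genes. Of these 9 lay among the 88 sites of the cadherin superfamily (10.2%) and 3 among the 59 of the guidance genes (5.08%). Valine to isoleucine was the most frequent change, with 8 sites, among them V221I and V575I in pcdh15.L and V548I and V552I in pcdhac2.S. Asparagine was gained at 15 sites (10.1%, 6.24 to 16.0), against 5.74% over all genes, with 12.5% in the cadherin superfamily and 6.78% in the guidance genes. At 5 of these sites asparagine replaced lysine (3.38% of member sites, against 1.20%). Cysteines, which form the disulfide bonds of semaphorin, plexin and Slit domains, were lost at 0 of 148 sites, which allows a share of up to 2.03% if 3 sites are taken as the limit of a count of 0 and up to 2.53% by the Wilson interval, against 1.68% over all genes. A loss rate like that of all genes would therefore not be detectable with this number of sites. Cysteine was gained at 2 sites, R476C in sema6d.S and S1804C in dchs1.L. Within the first 30 residues, where secreted and membrane proteins usually carry a signal peptide, lay 12 sites (8.11%, against 6.63%). These exchanges were singled out after their values were seen, and they were not tested.

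The missense fraction, missense sites over missense plus synonymous sites, was compared between each copy and all other genes. Ordered by p, the members with a low fraction began with plxna4-like.1.L (Xelaev18017877m), a receptor of semaphorins, with 1 missense and 14 synonymous sites, and 2 protocadherins. The fraction was 6.67% in plxna4-like.1.L (Wilson interval 1.19 to 29.8, Fisher's exact p = 0.00339, adjusted p = 0.135). It was 17.2% in pcdh1.S (7.60 to 34.5, Fisher's exact p = 0.00457, adjusted p = 0.166) and 7.14% in pcdh20.S (1.27 to 31.5, Fisher's exact p = 0.00582, adjusted p = 0.170). Next came cdh7.L with 16.7% (Fisher's exact p = 0.0302, adjusted p = 0.342) and dchs1.S with 25% (Fisher's exact p = 0.0486, adjusted p = 0.407). Lower fractions than in these last 2 also occurred in copies with fewer sites, such as pcdh15.S (10%, 10 sites) and plxna3.S (11.1%, 9 sites). None of these passed after Benjamini-Hochberg adjustment over the whole table.

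At the other end, celsr2.L had 80% missense (37.6 to 96.4, Fisher's exact p = 0.172, adjusted p = 0.660) and pcdh8.2.L 57.9% (36.3 to 76.9, Fisher's exact p = 0.246, adjusted p = 0.676). The fraction was 51.9% in fat1.S, 53.8% in slit2.S and 50% in cdh9.S and in sema6d.S, with Fisher's exact adjusted p from 0.809 to 0.955. Fat1.S and dchs1.S, which belong to partner families and carry about as many sites, thus had fractions of 51.9% and 25%, and the difference between them was not tested.

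The fraction was tested in the 39 member copies that held 5 sites or more. By Fisher's exact test 0 of them passed, against 1.32% of the 5005 copies tested in the whole table. An unadjusted p under 0.05 with a low fraction was found for 5 of the 39, against 6.25% of all copies tested. By the same test 152 of the 2012 tested copies with a symbol had such a p. A listed copy has at least 1 missense site, so copies with 10 sites or fewer could not reach it. With 1 missense site of 10, pcdh15.S had a Fisher's exact p of 0.0512. All 5 were among the 11 members with at least 10 sites, and the share over all copies of that size was not counted. With a high fraction an unadjusted p under 0.05 was found for 0 of the 39, against 4.6% of all copies tested. Of the 2012 tested copies with a symbol 47 had one. When the reference was the copies with a symbol, as all members are, the count of 5 fell to 3. It then lacked cdh7.L (Fisher's exact p = 0.0868) and dchs1.S (Fisher's exact p = 0.146). How many of all copies with a symbol had such a p under this reference was not counted. The fraction lay below that of all other genes in 32 of the 39 (82.1%), against 66.6% of all copies tested and 73.8% of tested copies with a symbol. The median fraction of the tested members was 25%, against 33.3% and 30%.

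Pooled over all listed members the missense fraction was 32.2% (Wilson interval 28.1 to 36.6), against 38.6% in copies with a symbol and 42.9% in all listed genes. Because a copy is listed only with a missense site, copies with few sites have high fractions by construction. Member copies held a median of 6 sites and copies with a symbol 4, and the part of this in the gap was not tested. By family the fraction was 25% in the Eph receptors, 28.4% in the plexins and 29.5% in the protocadherins. It was 31.2% in the semaphorins, 31.4% in the cadherins and 40% in the giant cadherins. The fraction was 28.6% in the netrin receptors and 44.4% in the 2 Slit copies. The 2 Eph receptor copies held 8 sites each: epha3.S alone stood at 12.5% and epha3.L alone at 37.5%. Each without its copy with the most sites, the giant cadherins stood at 51.2%, the cadherins at 35.3% and the protocadherins at 34.2%. In the same way the plexins stood at 33.9%. The semaphorins stood at 32.1% without sema3b.L and the netrin receptors at 35.7% without dcc-like.L. Each of these copies tied with another for the most sites, and leaving out the other was not tried. The order of the families thus changed with single copies. Every family interval overlapped the others, and that of slit1.L and slit2.S ran from 24.6 to 66.3%.

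**Figure D3:**
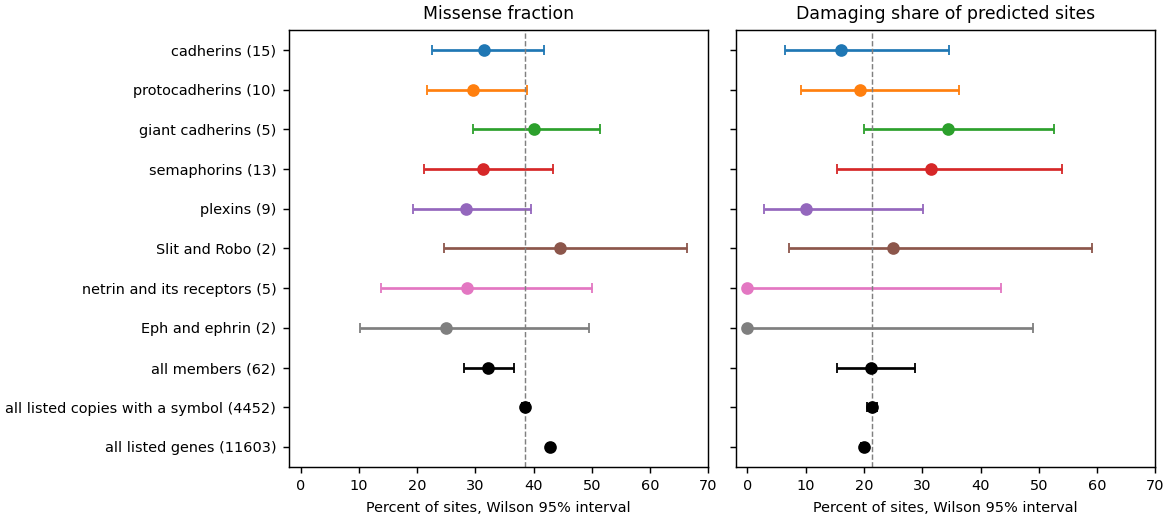
Missense fraction (left) and damaging share of predicted sites (right) by family, in percent of sites with Wilson 95% intervals, with the number of listed copies in brackets and dashed lines at the values of all copies with a symbol. The family intervals overlap one another, and the pooled members stand at 32.2% missense and 21.3% damaging.

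The damaging share was tested in the 5 member copies with at least 5 predicted sites. In dchs1.S, 5 of 8 predicted sites were damaging (62.5%, Wilson interval 30.6 to 86.3, Fisher's exact p = 0.0102, adjusted p = 0.741). The share was 27.3% in pcdh8.2.L (3 of 11), 14.3% in fat1.S (2 of 14) and in slit2.S (1 of 7), and 0 in pcdh1.S (0 of 5), each with Fisher's exact adjusted p = 1. By this test 0 of 5 members passed, and 0% of all 1112 copies tested did so. In pcdh1.S the lowest possible count, 0 of 5, gave an unadjusted Fisher's exact p of 0.590. A low share thus could not be called in a copy with so few predicted sites. An unadjusted p under 0.05 was found for 1 of the 5, against 3.15% of all copies tested. Of the 35 such p over all copies tested, 34 lay on the high side.

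Homeologs were compared in the 11 pairs with both copies listed, to ask whether L and S copies of 1 gene carry like numbers of variants. In 2 pairs of large adhesion proteins most sites lay in the S copy. The axial protocadherin pcdh1 held 1 site in L and 29 in S: its L copy had the missense change H645Q and 0 synonymous sites. Dachsous dchs1 held 7 sites in L (2 missense and 5 synonymous) and 32 in S (8 and 24). The share of sites in L was 3.33% for pcdh1 (exact binomial interval 0.0844 to 17.2, exact binomial p = 5.77e-08, adjusted p = 4.04e-06). It was 17.9% for dchs1 (7.54 to 33.5, exact binomial p = 7.03e-05, adjusted p = 0.00173).

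Among 9 member pairs large enough to be tested these 2 passed, while 15.5% of the 769 pairs with at least 10 sites in the whole table did. Unequal numbers of sites were thus frequent among all pairs. When only pairs with at least 20 sites were tested, 83 of 298 passed, and 2 of 3 among the member pairs. Of the 119 pairs that passed in the whole table, 75 had more sites in S and 44 had more in L. Expression and read depth of the copies are not in these tables, reads of near-identical homeologs can be assigned to the wrong copy, and the part of either was not tested. With synonymous sites alone pcdh1 (0 in L and 24 in S) and dchs1 (5 and 24) also passed.

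The pcdh15 pair held 4 sites in L and 10 in S (exact binomial adjusted p = 0.397). The other pairs were more even. The plexin plxnb1 held 12 sites in L and 10 in S, epha3 8 and 8, and plxnb2 6 and 9. Sites numbered 9 in L and 4 in S for cdh13, and 7 and 3 for both sema4b and unc5a. None of these 6 passed the exact binomial test, with adjusted p from 0.491 to 1. The pairs cdh3 (4 and 5) and cdh23-like.2 (4 and 4) had too few sites to be tested.

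The make-up of the sites was then compared within pairs. In pcdh15 the L copy held 3 missense sites and 1 synonymous site, and the S copy 1 and 9 (Fisher's exact p = 0.0410, adjusted p = 1). By this test 0 of 9 member pairs passed, as did 0% of all 769 pairs, and an unadjusted p under 0.05 was found for 1 of 9, against 3.25% of all pairs tested. The missense fractions of dchs1 were close, 28.6% in L and 25% in S (Fisher's exact adjusted p = 1), although the copies differed in their number of sites. Those of plxnb1 were 41.7% and 20%, and those of epha3 37.5% and 12.5% (Fisher's exact adjusted p = 1 for each). Over all listed members the fraction was 33.7% in 28 L copies and 31.1% in 34 S copies.

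**Figure D4:**
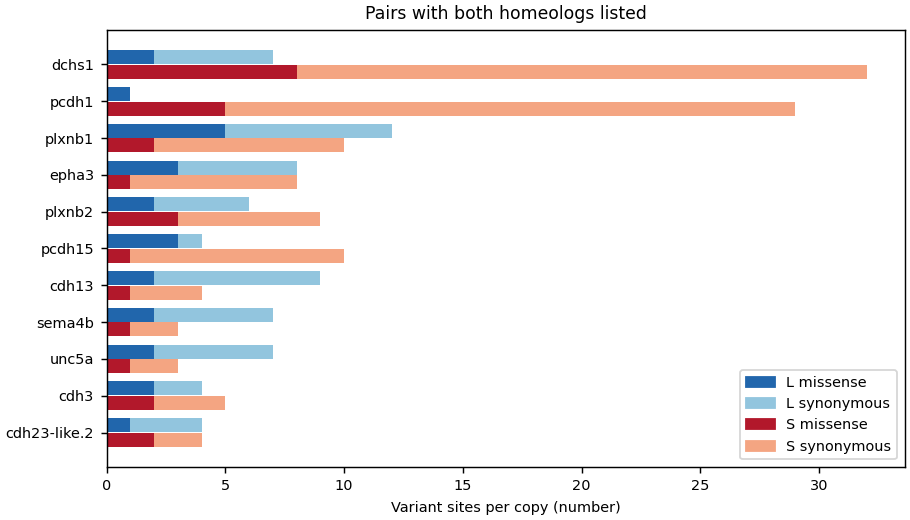
Variant sites in the L (blue) and S (red) copies of the 11 member pairs with both copies listed, in number of sites, with missense sites dark and synonymous sites light. The S bars of dchs1 (32 sites) and pcdh1 (29) are far longer than their L bars (7 and 1), and the bars of epha3 are equal at 8.

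Genes that act with the members were taken as a list of 89 names: catenins, planar polarity proteins, other guidance cues and adhesion molecules, and the enzymes and adaptors that carry their signals to the cytoskeleton. Of these 48 were in the pair table, and 37 of their 96 copies were listed (38.5%, against 32.6% of copies with a symbol). They held 70 missense and 202 synonymous sites. The missense fraction was 25.7% (Wilson interval 20.9 to 31.2), against 38.6% in copies with a symbol. Partner copies held a median of 7 sites and copies with a symbol 4, and the part of this in the gap was not tested. Of 24 copies tested 0 passed Fisher's exact test in either direction, against 1.32% of all copies tested. An unadjusted p under 0.05 was found for 7, of which 6 were lower and 1 was higher. Such a p in either direction was found for 10.8% of all copies tested. The adhesion plaque protein jup.S (plakoglobin), which links cadherins to the cytoskeleton, held 14 synonymous sites and 1 missense site, with an adjusted p of 0.135 by Fisher's exact test. The axonal adhesion molecule nrcam.L, the guanine exchange factor kalrn.S and the Slit-Robo effector srgap3.S each held 11 and 1, with an adjusted p of 0.270 by the same exact test. The Frizzled receptor fzd6.S went the other way, with 7 missense sites against 1 synonymous one, and an adjusted p of 0.337 by that exact test. Of 64 predicted partner sites 16 were damaging (25%, 16.0 to 36.8), against 21.4% in copies with a symbol. The copy arhgef11-like.S, an exchange factor that plexin-B receptors bind, held 5 of the 16. These genes were singled out after their values were seen.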

How the data were processed

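RNA was sequenced from whole tadpoles in 3 libraries, 1 per group. TopHat, SAMtools, Trimmomatic and CASAVA 1.8.2 appear in the submitters' processing notes. How variants were called and filtered, and on which genome build, is not given in the sources used here. Deposited by the authors were counts of variant sites per gene (missense by predicted class, and synonymous), not of reads. They also deposited, per site, the PolyPhen-2 probability of damage as a fraction from 0 to 1, a profile score difference, which is not reported on, the number of aligned residues and any matched structure. Of 11604 entries 1 is a header line and was left out; in all 11603 genes the counts per class matched the site table exactly.

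Members were matched by name and joined by gene model identifier. The members and lists were chosen with earlier results of these data known. Copies with at least 5 sites (missense fraction) or 5 predicted sites (damaging share) were set against the rest of the table with a two-sided Fisher's exact test. Pairs with at least 10 sites were tested by Fisher's exact test and, for the L share of sites against 50%, by an exact binomial test, two-sided. Adjustment (Benjamini-Hochberg, threshold 0.05) ran over the whole table. These tests treat sites of 1 gene as independent, although they are linked. Named with test results were members that passed, the 5 smallest p each way for the missense fraction, and tested members for the damaging share. Pairs were named by difference in sites. Intervals and unadjusted p are not printed for each of them. Computation used Python 3.11.15 and scipy 1.17.1. The code was checked on simulated independent sites, with changes placed only in units with many sites. For the damaging share more predicted sites were simulated than the data hold. This check does not show how well changes are found in copies with few sites. Protein sequences were not used here.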

Additional observations from a re-analysis of the deposited data

How the results depend on the processing

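No replicate library exists, so none could be left out. No paired analysis was possible because each group has 1 library and no column names a library. The 2 pairs called for their number of sites, pcdh1 and dchs1, were called under each alternative run for them: expecting the pooled L share of 47.3%, counting synonymous sites only, and requiring at least 20 sites. Their adjusted p (exact binomial test) ranged from 1.56e-06 to 1.82e-05 for pcdh1 and from 0.000675 to 0.00805 for dchs1. Over all pairs 126 of 769 were called with the pooled share and 83 of 298 with at least 20 sites. No member passed the Fisher's exact tests under any alternative run. The adjusted p of plxna4-like.1.L ranged from 0.0573 (at least 10 sites per copy) to 0.345 (copies with a symbol as the reference). Calls over all genes moved: for the missense fraction from 66 to 28 with no minimum of sites and to 14 without the 1% of copies with the most sites, dchs1.S among them. With only copies with a symbol tested and used as the reference 4 were called, where 20 of the same copies were called against all genes. For the damaging share they went from 0 to 1 with probably damaging sites only and with a probability of at least 0.9. For the missense fraction within pairs they went from 0 to 1 with at least 20 sites, and for the number of sites from 119 to 69 with synonymous sites only, where fewer pairs reached 10 sites (457 against 769). With probably damaging sites only the damaging share fell to 13.5% over all members and 6.45% in the protocadherins. In copies with a symbol it fell from 21.4% to 8.16%, so the members went from level with these copies to above them, which was not tested. Without slit2.S the Slit group rests on slit1.L alone, with 20% missense and 100% damaging (1 predicted site). The few sites per copy limit what could be called.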
